A study of Mus musculus with 2 samples.

Results

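The genes described here are 42 markers of the S and G2/M phases of the cell cycle, measured one cell at a time in resident macrophages of the mouse sciatic nerve (SN). They were taken as a list of gene symbols, all 42 of which were found once among the 54838 genes of both deposited count matrices. By their known roles they fell into 19 mitosis genes, 8 DNA replication genes, 3 genes of S-phase histones and repair (Hist1h2ae, Hist1h2ap and Neil3), 4 genes of condensin and the Cks proteins, 7 chromatin and tubulin genes that many resting cells also express, and the G1 cyclin Ccnd1. The macrophages had been sorted by CD64 and CD45 from sciatic nerves pooled from 19 male mice aged 10 to 12 weeks. The mice carried a Flt3-Cre driver and a Cre-dependent YFP reporter, so that YFP marked cells with a past of Flt3 expression, as in most descendants of adult-type hematopoietic stem cells, and its absence marked mainly cells of embryonic origin. YFP− and YFP+ macrophages were each run as 1 library, so both conditions came from the same pool of animals, neither had a replicate, and no difference between them could be tested.

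A dividing cell first copies its DNA in S phase and then separates the copies in G2 and M phases, and each step has its own set of transcripts. Replication needs the MCM helicase, the sliding clamp PCNA and enzymes that make deoxynucleotides, and histone genes are transcribed along with it. Mitosis needs cyclin B with its kinase CDK1, the Aurora kinases, centromere and spindle proteins, and a ubiquitin ligase whose E2 enzyme is UBE2C. Resident macrophages of many tissues are known to keep their numbers by dividing in place, at a low rate.

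Barcodes with at least 500 unique molecular identifiers (UMIs, each marking 1 captured transcript) and 200 genes were taken as cells. There were 1045 such cells with 2418044 UMIs in the YFP− library and 4053 with 6747554 UMIs in the YFP+ library, at medians of 2233 and 1484 UMIs per cell. The libraries shared 7 cell barcodes, none of them among the cells with several mitosis genes described below. Levels are UMIs summed over cells, as CPM (counts for every 1000000), with 95% intervals (exact Poisson for levels, exact binomial for shares and ratios) that cover counting error only, not differences between animals or preparations. The intervals of levels and ratios treat each UMI as independent, so they are too narrow where a gene's UMIs cluster in few cells. A count of 3, the floor used for a gene at 0, was worth 1.24 CPM for YFP− and 0.445 CPM for YFP+ cells. Because the assay counts the ends of transcripts, levels were compared between cells or libraries and not between genes.

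The promoters of the 2 phases are known to differ in sequence. Many mitosis promoters hold CCAAT boxes and a cell cycle homology region (CHR), and many replication promoters hold sites for E2F factors. The windows from 250 bases before to 50 bases after the annotated start (RefSeq, GRCm38.p6) could be matched for 35 of the 42 genes, 3 of them through an older symbol. No window was matched for Ccna2, Tpx2, Aurkb, Hist1h2ap, Smc4, Stmn1 and Ccnd1. The stretches below, each the 120 bases before the start read along the gene's strand, are shown for 6 genes whose UMIs are compared in the results. Capitals mark the CCAAT box (CCAAT or, on the other strand, ATTGG), the CHR (TTTGAA, which reads TTCAAA on the other strand, or the palindrome TTCGAA) and the E2F site (TTTCCCGC, TTTCGCGC, TTTGCCGC, TTTGGCGC or their reverse complements).
Top2a, chr11:99024190-99024309, minus strand: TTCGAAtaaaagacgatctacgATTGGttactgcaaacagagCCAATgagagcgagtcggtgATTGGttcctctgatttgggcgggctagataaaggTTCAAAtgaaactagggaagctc
Cdk1, chr10:69352913-69353032, minus strand: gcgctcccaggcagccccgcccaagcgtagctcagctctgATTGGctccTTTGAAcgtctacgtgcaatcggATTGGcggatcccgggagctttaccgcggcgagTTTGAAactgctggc
Ube2c, chr2:164769809-164769928, plus strand: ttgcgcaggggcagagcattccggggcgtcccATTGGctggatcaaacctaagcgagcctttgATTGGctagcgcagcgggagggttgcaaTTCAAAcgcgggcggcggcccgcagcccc
Ccnb2, chr9:70421555-70421674, minus strand: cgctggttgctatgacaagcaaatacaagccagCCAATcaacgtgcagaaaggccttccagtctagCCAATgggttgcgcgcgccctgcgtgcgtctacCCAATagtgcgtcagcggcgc
Mcm6, chr1:128359706-128359825, minus strand: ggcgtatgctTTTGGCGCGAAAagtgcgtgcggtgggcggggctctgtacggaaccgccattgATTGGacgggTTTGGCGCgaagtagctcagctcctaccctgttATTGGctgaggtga
Pcna, chr2:132253181-132253300, minus strand: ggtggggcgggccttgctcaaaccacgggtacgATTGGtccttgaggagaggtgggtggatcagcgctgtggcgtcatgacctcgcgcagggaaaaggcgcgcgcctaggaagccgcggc

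Top2a, Cdk1 and Ube2c carried CCAAT boxes and CHR letters within the stretch shown, Ccnb2 carried 3 CCAAT boxes there, and Mcm6 carried 3 E2F matches, of which 2 overlap, and no CHR. In the 300-base windows, the CHR letters were found in 12 of 16 mitosis promoters and in 0 of 8 replication promoters, beside 19.2% of all 32851 promoters in the table. The E2F letters were found in 1 of 16 mitosis promoters (Cdk1) and in 4 of 8 replication promoters (Mcm3, Mcm5, Mcm6 and Pclaf), beside 2.26% of all promoters. The CCAAT box was common to both roles, at 13 of 16 and 7 of 8, beside 37.4% of all promoters. These are matches of letters and not measured binding, and a window without a match says only that those letters were not in it.

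All 42 genes had UMIs in cells of both libraries, and most mitosis genes were found in few cells. Top2a, the topoisomerase that untangles DNA before mitosis, was at 24.0 CPM in YFP− cells (18.2 to 31.0, 58 UMIs in 19 cells) and at 26.5 CPM in YFP+ cells (22.8 to 30.7, 179 UMIs in 65 cells). Mki67, which coats mitotic chromosomes and is the usual marker of proliferation, was at 10.8 CPM (7.02 to 15.8, 26 UMIs) and 15.3 CPM (12.5 to 18.5, 103 UMIs). Their intervals overlapped between the libraries. Ccnb1, the main mitotic cyclin, had 7 UMIs in YFP− and 12 UMIs in YFP+ cells. Aurka, a kinase of the spindle poles, had 4 and 15 UMIs. Cenpa, the histone that marks centromeres, was at 45.9 CPM (37.8 to 55.3) in 90 YFP− cells and 31.9 CPM (27.7 to 36.4) in 182 YFP+ cells. The histone variant H2afz and the tubulin Tubb5 were found in 54.5% and 44.8% of YFP− cells.

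**Figure D1:**
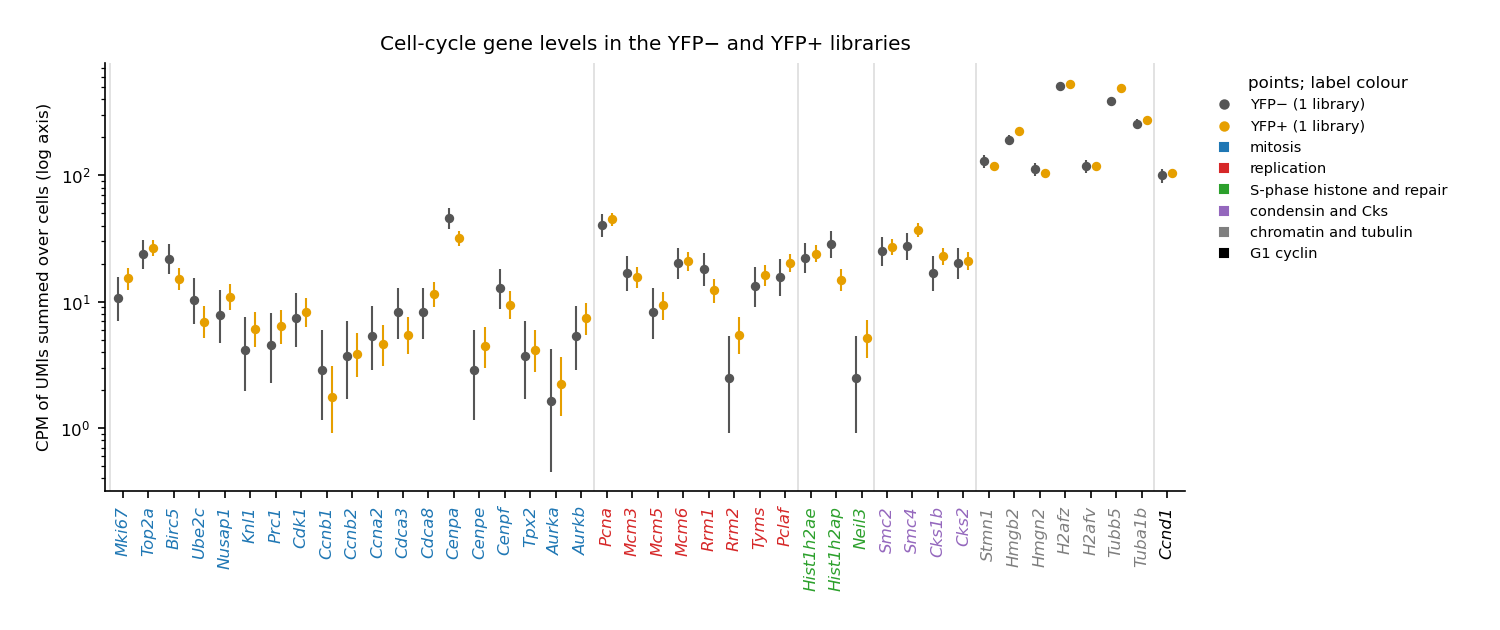
Level of each of the 42 genes in the YFP− (grey) and YFP+ (orange) library, as CPM of UMIs summed over cells on a log axis, with exact Poisson 95% intervals and gene names coloured by role. The intervals of most pairs overlap. Those of Hist1h2ap (28.5 CPM for YFP− against 15.0 CPM for YFP+), Cenpa (45.9 against 31.9), Hmgb2 (191 against 225) and Tubb5 (386 against 492) stand apart.

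The first question was whether the programme differed in level between macrophages with and without the YFP mark. Summed over the 19 mitosis genes, the level was 192 CPM for YFP− and 182 CPM for YFP+ cells (log2 of YFP+ over YFP−, −0.07, interval −0.23 to 0.08). Summed over the 8 replication genes it was 135 and 145 CPM, a log2 ratio of 0.10 (−0.08 to 0.29). Both intervals include 0. The sums of condensin and Cks genes (log2 0.26, 0.04 to 0.48) and of chromatin and tubulin genes (0.13, 0.08 to 0.18) were slightly higher in YFP+ cells. Ccnd1, the cyclin that brings cells out of G1 after growth signals, was at 99.7 and 104 CPM (log2 0.06, −0.15 to 0.28).

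Gene by gene, 34 members reached a mean of 5 CPM over the libraries. None of the 34 was at least 1.5-fold higher in YFP+ cells, where 4.12% of all 10065 genes with that mean were. In the other direction 2 of the 34, Hist1h2ap and Cdca3, were at least 1.5-fold higher in YFP− cells, where 10.6% of all genes were. The median log2 ratio of the 34 genes was 0.10, beside −0.02 over all 10065. These counts changed with depth. No share of all genes is given for thinned cells, so the thinned count is not read as a result about the members. With each cell thinned to 500 UMIs, 10 members were at least 1.5-fold apart, among them Tubb5 (log2 0.68) and Hist1h2ap (0.63), both then higher in YFP+ cells, while Cdca3 was at 0.04 with thinned cells and at −0.05 with equal weight of cells. Below that mean, the ribonucleotide reductase subunit Rrm2 had 6 UMIs in YFP− and 37 in YFP+ cells (log2 1.14, −0.11 to 2.68) and the DNA glycosylase Neil3 had 6 and 35 (1.06, −0.20 to 2.60), with intervals that include 0.

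Hist1h2ap, a replication-dependent H2A histone gene, differed most among the 34 genes, at 28.5 CPM for YFP− against 15.0 CPM for YFP+ cells (log2 −0.93, −1.39 to −0.47). A single YFP− cell held 18 of its 69 UMIs, and with each cell thinned to 500 UMIs the sign turned (log2 0.63). Its neighbour in kind, Hist1h2ae, was at 22.3 and 24.0 CPM (log2 0.10, −0.35 to 0.58). Reads of such near-identical histone genes can be split between copies, and transcripts of these genes mostly lack the poly(A) tail that the assay captures, so the levels of both are uncertain. Cdca3 was at 8.27 CPM (20 UMIs) and 5.48 CPM (37 UMIs), with an interval from −1.42 to 0.27. The survivin gene Birc5 (log2 −0.54, −1.03 to −0.03), Cenpa (−0.53, −0.86 to −0.18) and the ribonucleotide reductase subunit Rrm1 (−0.56, −1.11 to −0.0033) were lower in YFP+ cells with intervals below 0. The condensin subunit Smc4 (0.42, 0.02 to 0.83), the chromatin protein gene Hmgb2 (0.24, 0.09 to 0.39) and Tubb5 (0.35, 0.24 to 0.46) were higher. The higher Smc4 turned to −0.15 with thinned cells. Of the 53 Birc5 UMIs in YFP− cells, 12 lay in a single cell. Limits as close to 0 as those of Birc5, Rrm1 and Smc4 are not read as a difference.

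UMIs of mitosis genes also occurred outside cells. Among barcodes with 10 to 100 UMIs, taken as free RNA, the summed mitosis level was 244 CPM for YFP− and 210 CPM for YFP+, at or above the level in the cells. Single genes went both ways. Birc5, Cdk1, Stmn1, Cenpa and Rrm1 are named here because they were higher in free RNA than in cells. Birc5 was at 33.0 and 27.0 CPM there, against 21.9 and 15.1 CPM in cells. Cdk1, the kinase partner of the mitotic cyclins, was at 24.2 and 14.7 CPM, against 7.44 and 8.30 CPM. Stmn1, which takes microtubules apart, was at 270 and 294 CPM, against 129 and 119 CPM. Cenpa was at 70.4 and 44.2 CPM, against 45.9 and 31.9 CPM. Rrm1 was at 35.2 and 13.8 CPM, against 18.2 and 12.3 CPM. For Birc5, Cenpa and Rrm1 the free RNA was also lower in YFP+ than in YFP−, as in the cells. So was that of Hist1h2ap, at 5.41 against 12.1 CPM. For Smc4 the free RNA was higher in YFP+, as in the cells, at 33.4 against 26.4 CPM. So it was for Hmgb2 (203 against 182 CPM) and Tubb5 (437 against 390 CPM). The same held for the condensin and Cks sum (130 against 112 CPM) and the chromatin and tubulin sum (2107 against 1989 CPM). Top2a was lower in free RNA than in cells, at 6.60 against 24.0 CPM in YFP− and at 16.7 against 26.5 CPM in YFP+. At 500 UMIs per cell, 0.383% of YFP− and 0.64% of YFP+ cells had a Top2a UMI, and a cell made of free RNA alone would have had one in 0.329% and 0.832% of cases. A single UMI of a mitosis gene is therefore not read as expression, and how much free RNA added to the cells was not tested.

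Several mitosis genes in 1 cell were used instead. Most cells with any mitosis UMI had a single gene, and that gene was often Cenpa, which accounted for 75 of 140 such YFP− cells and 153 of 296 such YFP+ cells. At least 3 of the 19 genes were found in 13 of 1045 YFP− cells (1.24%, 0.66% to 2.12%) and in 55 of 4053 YFP+ cells (1.36%, 1.02% to 1.76%). These shares differed by less than their counting error. With every cell thinned to 500 UMIs they were 5 cells (0.478%, 0.155% to 1.11%) and 25 cells (0.617%, 0.400% to 0.909%). The number 3 cuts a range and does not define a cell type: 9 YFP− and 17 YFP+ cells had exactly 2 mitosis genes, 4 and 8 had exactly 3, and 5 and 18 had 10 or more. Among barcodes with 100 to 499 UMIs, 1 of 394 and 2 of 1827 had 3 mitosis genes.

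**Figure D2:**
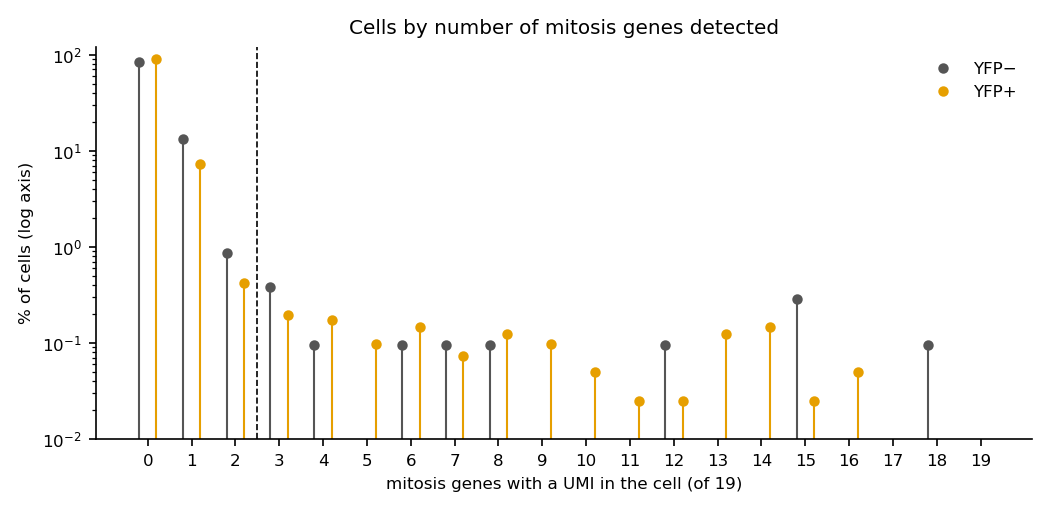
Percent of YFP− (grey) and YFP+ (orange) cells, on a log axis, by the number of the 19 mitosis genes with at least 1 UMI, where the dashed line marks the limit of 3 genes. Cells with 0 genes make up 84.5% of YFP− and 90.9% of YFP+ cells, and beyond the line both libraries have a thin tail that reaches 18 genes in YFP− and 16 genes in YFP+.

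The 68 cells with at least 3 mitosis genes were 68 of 5098 cells and held 2.44% of all UMIs. They were deeper than the rest, with medians of 4488 against 2224 UMIs in YFP− and 2700 against 1477 UMIs in YFP+, and 2 and 11 of them exceeded 3 times the median of their library. No doublet caller was run, and without all cells over that depth 11 and 44 cells with 3 mitosis genes were left. Depth raises the chance of finding 3 genes, and its part in choosing the cells was not tested. Transcripts of macrophage complement (C1qa) were found in 67 of the 68 cells. C1qa was abundant in the other cells too, so this share does not set the 68 apart. Its level was 5038 against 6188 CPM in YFP− and 4797 against 6134 CPM in YFP+ cells. The 12 macrophage markers together were slightly lower in the 68 cells than in the others (log2 −0.32 in YFP− and −0.48 in YFP+). Most of that sum was Lyz2 and the C1q genes, and not all 12 were lower. In YFP−, Cd68 (log2 0.59, 0.12 to 1.03) and Cd14 (0.68, 0.20 to 1.12) were higher. In YFP+, Cd68 (0.22, −0.07 to 0.50) and Cd14 (−0.0014, −0.30 to 0.29) had intervals that include 0. The lists of T and NK cell, neutrophil, mast cell and mural cell markers were at 0 UMIs in all 68. In the other YFP− and YFP+ cells the T and NK cell list was at 0.42 and 1.06 CPM. The mast cell list was at 0.42 and 0.30 CPM, the neutrophil list at 16.9 and 12.0 CPM, and the mural cell list at 8.89 and 118 CPM. The zeros of the T and NK cell and mast cell lists therefore do not set the 68 apart. The 5 Schwann cell markers were at 548 against 692 CPM in YFP− and at 311 against 638 CPM in YFP+ cells, the 5 B cell markers at 283 against 376 CPM and at 448 against 378 CPM, and dendritic cell, endothelial and fibroblast markers at 35.8 CPM or less. Of 5 monocyte markers only Ccr2, a receptor that guides monocytes, had UMIs in the 68 cells, and Ly6c2 was at 0. Ly6c2 had 1 UMI in the other YFP− cells and 0 in the other YFP+ cells, so its 0 does not set the 68 apart. Ccr2 was at 389 against 118 CPM in YFP− and at 412 against 288 CPM in YFP+. In YFP− its UMIs lay in 4 of 13 cells, so the higher level there rested on few cells. In YFP+ they lay in 27 of 55. By flow cytometry, which measures protein and not RNA, the paper saw CCR2+ macrophages in the YFP+ fraction alone. In its RNA data, the cluster defined by Ccr2 held mostly YFP+ macrophages.

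Within the 68 cells the summed levels of the libraries were close. The mitosis genes chose these cells in each library, at medians of 4488 UMIs in YFP− and 2700 UMIs in YFP+. The mitosis sums on both sides of the rule are therefore a description. The summed mitosis level was 5197 CPM over 13 YFP− and 5264 CPM over 55 YFP+ cells (log2 0.02, −0.17 to 0.21), and the summed replication level was 1449 and 1559 CPM (0.11, −0.26 to 0.48). In all other cells, the mitosis sum was lower in YFP+ than in YFP− cells, at 53.2 against 72.0 CPM (log2 −0.44, −0.71 to −0.16). Cenpa made up 92 of the 170 mitosis UMIs of those YFP− cells and 169 of the 350 of those YFP+ cells. Without Cenpa the sums were 27.7 CPM for YFP+ and 33.5 CPM for YFP−, and the interval included 0 (log2 −0.27, −0.66 to 0.13).

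The share of a gene's UMIs that these few cells held varied widely among the 42 genes. In this count a mitosis gene was left out of the rule when its own UMIs were counted, but the mitosis genes still chose the cells together, so their shares are a description. Ube2c had 91.7% of its 72 UMIs (82.7% to 96.9%) in them, Nusap1, which binds spindle microtubules, 88.2% of 93, Birc5 87.1% of 155, Mki67 85.3% of 129 and Top2a 80.6% of 237. The cyclins were alike, with 17 of 19 UMIs for Ccnb1, 28 of 35 for Ccnb2 and 38 of 44 for Ccna2. The kinase genes were held less, at 60.8% for Cdk1, 63.5% for Aurkb and 57.9% for Aurka. So were Cenpe at 59.5%, Tpx2 at 56.8% and Cdca8, which belongs to the complex of Aurora B, at 52.0%. Cenpa was the exception among the 19, with 19.9% (15.7% to 24.7%) of its 326 UMIs in the cells.

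The genes that did not choose the cells spread over the whole range. Neil3 had 40 of its 41 UMIs in the 68 cells. All 35 of its YFP+ UMIs were in the 55 cells. With 3 counts as the floor for the other 3998 cells, its level was 459-fold higher in the 55. The exact interval, from 0 counts in the other cells, began lower, at a log2 ratio of 8.47. The histone genes Hist1h2ap (87.6%) and Hist1h2ae (86.1%) were as concentrated as the mitosis genes. So were 2 of the 8 replication genes, Rrm2 (88.4% of 43 UMIs, 74.9% to 96.1%) and Pclaf (73.7% of 175 UMIs, 66.5% to 80.1%), which codes for a factor bound to PCNA. The other 6 were found mostly outside: Rrm1 had 25.2%, the thymidylate synthase gene Tyms 23.2%, Pcna 14.8%, and the helicase subunits Mcm5, Mcm3 and Mcm6 14.5%, 13.0% and 11.1% of their UMIs in these cells. Even so, their level was higher in the 68 cells. Pcna was at 177 CPM against 36.8 CPM in YFP− (log2 2.26, 1.15 to 3.21) and at 293 against 38.4 CPM in YFP+ cells (2.93, 2.46 to 3.37). In free RNA the sum of the 8 replication genes was 161 CPM for YFP− and 135 CPM for YFP+. In the cells outside the 68 it was 104 and 109 CPM. Replication UMIs outside the 68 cells are therefore not read as expression, and the part of free RNA in them was not tested.

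**Figure D3:**
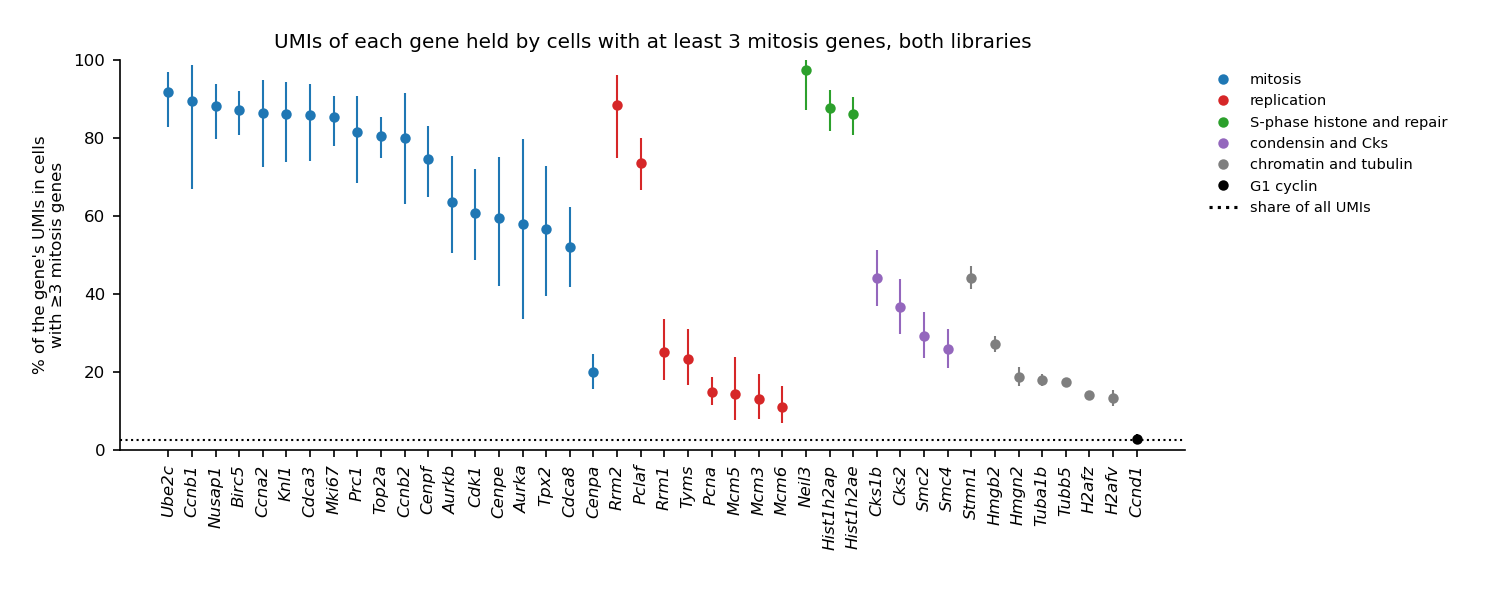
Percent of each gene's UMIs, both libraries summed, that lie in the cells with at least 3 mitosis genes, with exact binomial 95% intervals, coloured by role, and a dotted line at the 2.44% of all UMIs that these cells hold. Most mitosis genes, Neil3, both histones, Rrm2 and Pclaf lie above 50%, the other replication genes and Cenpa lie below 30%, and Ccnd1 lies on the line.

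Condensin and Cks genes lay between. Cks1b and Cks2, which bind cyclin-dependent kinases, had 44.1% and 36.6% of their UMIs in the cells, and the condensin subunits Smc2 and Smc4 had 29.2% and 25.9%. Among chromatin and tubulin genes the share went from 44.2% for Stmn1 and 27.1% for Hmgb2 to 14.2% for H2afz and 13.2% for H2afv. Stmn1 was at 2757 against 65.6 CPM in YFP− and at 2001 against 70.8 CPM in YFP+ cells (log2 5.39 and 4.82). Hmgb2 was at 1927 against 149 CPM and at 2557 against 166 CPM (log2 3.69 and 3.95). Hmgb2, Hmgn2, H2afz, Tubb5, Tuba1b and Stmn1 have close copies in the genome among which reads can be split, so their absolute levels are uncertain. Ccnd1 had 2.87% of its UMIs in the cells and was hardly higher there (log2 0.09, −1.37 to 1.24 in YFP− and 0.28, −0.42 to 0.90 in YFP+).

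Of the 34 genes with a mean of 5 CPM, 33 were at least 2-fold higher in these cells in each library, where 17.5% of all tested genes were in YFP− and 13.4% in YFP+. Ccnd1 was the exception. None of the 34 was at least 2-fold lower, where 36.4% of all tested genes were in YFP− and 19.1% in YFP+, genes without a UMI in these cells included. The cells were chosen by 13 of the 34. The mean of 5 CPM was taken over all cells, these included, so some members reached it only through them. Hist1h2ap, for example, was at 2.96 CPM in the other YFP− cells and at 2.13 CPM in the other YFP+ cells. The count is therefore a description. The median log2 difference of the 34 genes was 4.54 in YFP− and 4.75 in YFP+, beside −0.23 and 0.01 over all tested genes.

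The second question was how replication genes go with mitosis genes in single cells. The 8 replication genes took no part in choosing the cells. Their sum was at 1449 CPM in the 13 YFP− cells against 104 CPM in the other 1032, a log2 ratio of 3.80 (3.43 to 4.17). In YFP+ it was at 1559 CPM in 55 cells against 109 CPM in 3998, a log2 ratio of 3.84 (3.63 to 4.05). Pclaf made up 28 of the 82 replication UMIs in the 13 cells and 10 of the 245 in the other YFP− cells. In YFP+ it made up 101 of 261 and 36 of 717. Pclaf is also a marker of the study's proliferating cluster, so its part of the sum is not independent evidence. At least 2 replication genes were found in 44 of the 68 cells (64.7%, 52.2% to 75.9%) and in 107 of the 5030 others (2.13%, 1.75% to 2.56%). The other way round, 14 YFP− and 42 YFP+ cells had at least 3 replication genes, and the mitosis sum was higher in them by a log2 ratio of 5.03 (4.76 to 5.30) and 4.78 (4.61 to 4.94). Of these 56 cells 31 had at least 3 mitosis genes and 15 had none. With each cell thinned to 500 UMIs, 16.7% of the cells with 3 mitosis genes (then 5 YFP− and 25 YFP+ cells) had 2 replication genes. No thinned share is given for the other cells, so the contrast of 64.7% with 2.13% stands at unequal depth. The log2 ratio of the replication sum in YFP+ was 3.17 with thinned cells.

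The balance of the 2 sets varied from cell to cell. In the 68 cells, replication UMIs made up between 0% and 72.7% of the replication and mitosis UMIs, with a median of 17.0%. No replication gene was found in 16 of them. One YFP− cell with 18 mitosis genes had 72 mitosis UMIs and 6 replication UMIs, while another, with 3 mitosis genes, had 6 mitosis and 13 replication UMIs. In the YFP− library, 5 of 13 cells had no replication UMI, and these had between 3 and 6 mitosis genes, fewer than 7 of the other 8.

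**Figure D4:**
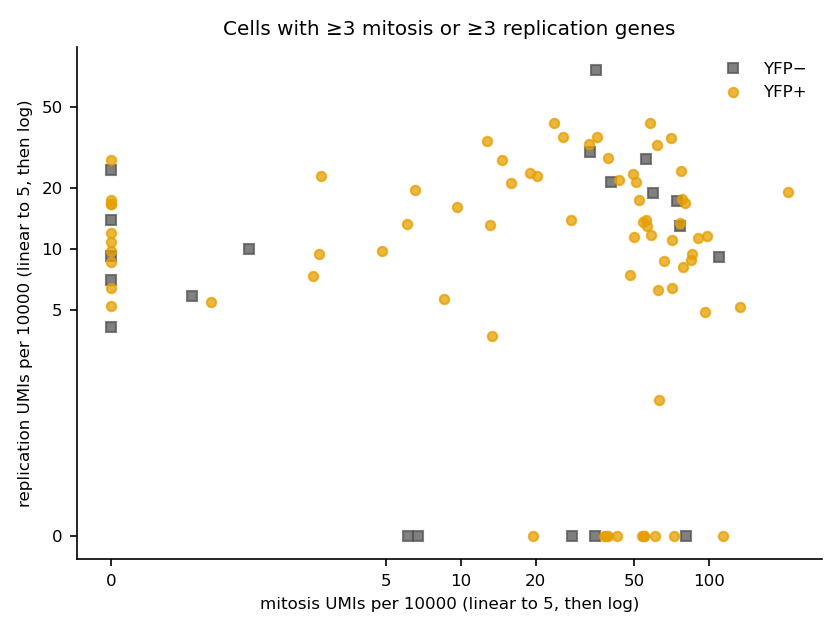
Mitosis UMIs per 10000 UMIs of a cell (x) against replication UMIs per 10000 (y), both linear to 5 and logarithmic above, for each cell with at least 3 mitosis or at least 3 replication genes, in YFP− (grey squares) and YFP+ (orange circles). Points lie on both axes, that is cells with replication and no mitosis UMIs and the reverse, besides the group in the upper right that has both.

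The 68 cells were split by their replication genes to see which other members went with them. The 44 cells with at least 2 replication genes (8 YFP− and 36 YFP+) were deeper, at a median of 3959 UMIs against 1573 in the other 24 (5 and 19), and depth was not separated from this split. By CPM, the mitosis sum was 5470 in the 44 cells and 4380 in the 24 (log2 0.32, 0.10 to 0.55). The S-phase histone and repair sum was 1836 and 1046 (0.81, 0.37 to 1.28), and the chromatin and tubulin sum 15332 and 10350 (0.57, 0.43 to 0.71). Stmn1 (log2 1.03, 0.62 to 1.46), Tuba1b (1.10, 0.67 to 1.57), Hist1h2ap (1.10, 0.35 to 1.95) and Birc5 (0.78, 0.06 to 1.58) were higher in the cells with replication genes. Cenpa was at 258 against 458 CPM in them (log2 −0.82, −1.60 to −0.0058), and a limit that close to 0 is not read as a difference. Cenpe, the motor that moves chromosomes (−0.87, −2.16 to 0.55), Ccnb1 (−0.69, −2.30 to 1.16) and Ccnb2 (−0.43, −1.64 to 0.94) had negative values with intervals that include 0, on 25, 17 and 31 UMIs. In the 42 YFP+ cells with at least 3 replication genes, Ccnb1 had 1 of its 12 UMIs and Top2a had 97 of 179. That is 5.99 CPM for Ccnb1 against 1.67 CPM in the other YFP+ cells (log2 1.84, −3.59 to 4.62). The interval is too wide to give a direction. In the 14 such YFP− cells Ccnb1 had 4 of its 7 UMIs.

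Co-expression across single cells was described by Pearson's r of the log of 1 plus UMIs per 10000, over the 1045 cells of one library or the 4053 of the other. Cells of a library share their depth range and free RNA, and the values carry no test. Among the 171 pairs of mitosis genes the median r was 0.28 in YFP− and 0.27 in YFP+ cells. Between mitosis and replication genes it was 0.10 and 0.09 over 152 pairs. Mitosis genes went with the histone and repair genes at a median of 0.35 and 0.38, higher than with one another. The strongest pairs were Nusap1 with Knl1, a kinetochore scaffold, in YFP− (0.73) and Top2a with Birc5 in YFP+ (0.68), and Mki67 with Top2a reached 0.63 and 0.59. The value for Nusap1 with Knl1 came from 8 YFP− cells with Nusap1 and 7 with Knl1. Ccnd1 was at a median of 0.00030 and 0.0063 with the mitosis genes. Of the 861 pairs 154 exceeded 0.3 in YFP− and 154 in YFP+, of which 108 were shared. No such count is given for pairs of other genes, so these counts are a description.

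**Figure D5:**
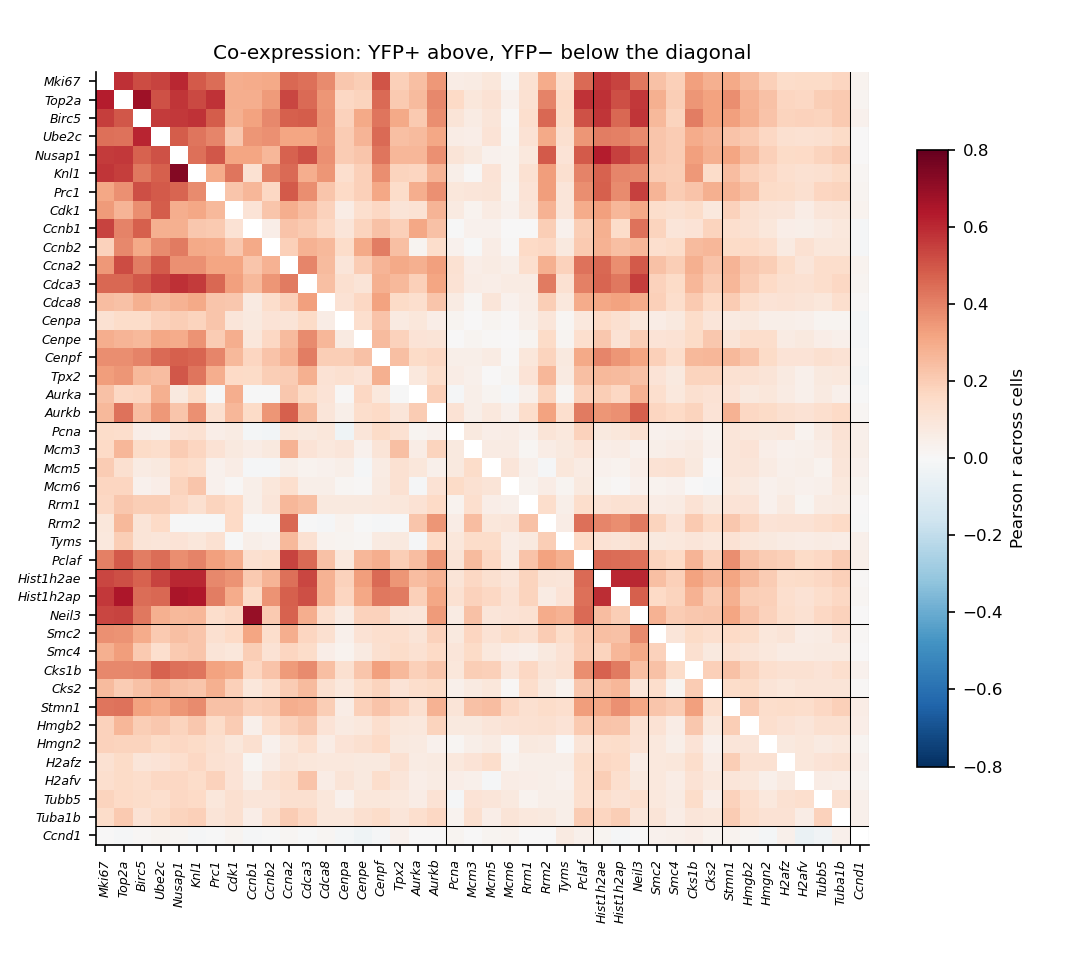
Pearson r across cells for all pairs of the 42 genes, in order of role with lines between roles, for 4053 YFP+ cells above and 1045 YFP− cells below the diagonal, on a colour scale from −0.8 (blue) to 0.8 (red). The red block of mitosis genes extends to Pclaf, Rrm2 in YFP+, the histone genes and Neil3, the MCM genes and Pcna stay pale, and the row of Ccnd1 is near 0.

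The r values changed with the cells and UMIs used. With each cell thinned to 500 UMIs, which leaves few UMIs of these genes, the median among mitosis genes was −0.0017 in YFP− and 0.07 in YFP+. Without cells over 3 times the median UMIs it was 0.249 and 0.245, and over cells with at least 1000 UMIs 0.298 and 0.338. Within the 68 cells alone it was 0.14 among mitosis genes, 0.02 between mitosis and replication genes and 0.24 among replication genes. The mitosis genes chose these cells, and the cells came from 2 libraries of unequal depth. These medians are therefore a description and do not rank the sets of genes. Within the 68 cells the centromere genes Cenpa and Cenpf paired most closely of the mitosis genes (0.58), and Hist1h2ae with Hist1h2ap was the closest pair of all (0.67). In YFP− cells the value of 0.70 for Ccnb1 with Neil3 came from 4 cells with Ccnb1 and 6 with Neil3.

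Counted as cells, a Mki67 UMI was found in 37 of the 84 cells with a Top2a UMI (44.0%, 33.2% to 55.3%) and in 23 of the 5014 without (0.459%, 0.291% to 0.688%). Thinned to 500 UMIs, it was 5 of 30 (16.7%, 5.64% to 34.7%) and 14 of 5068 (0.276%, 0.151% to 0.463%). The share was alike in the libraries, at 8 of 19 YFP− and 29 of 65 YFP+ cells. Pclaf went with Top2a in 44 of 84 against 34 of 5014 cells, and after thinning in 6 of 30 against 18 of 5068. A Pcna UMI was found in 33 of 84 cells with Top2a (39.3%, 28.8% to 50.5%) and in 313 of 5014 without (6.24%, 5.59% to 6.95%), and after thinning in 6 of 30 against 98 of 5068. Read the other way, 33 of the 346 cells with a Pcna UMI had Top2a (9.54%, 6.66% to 13.1%). Ccnd1 UMIs were found in 23 of 84 cells with Top2a and in 702 of 5014 without, and after thinning in 0 of 30 and 265 of 5068 (5.23%). The 0 of 30 allows a share of up to 11.6% (exact binomial), so these cells cannot show whether the higher share holds at equal depth.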

How the data were processed

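The 2 libraries of SN macrophages (YFP− and YFP+) were analysed. The authors made them with the 10x Chromium Single Cell v2 chemistry. Per the submitters' processing notes, Cell Ranger 3.0.2, Seurat 2.2.0 and GRCm38 were used, the study's methods name another pipeline version, and the annotation release is not given in the sources used here. The deposited matrices hold raw UMI counts of all barcodes, unfiltered and not normalized. Barcodes with at least 500 UMIs and 200 genes were kept as cells, doublets included. Counts were summed per library, divided by the sum over all genes and given as CPM. Gene positions and Ensembl IDs were matched to GENCODE vM21. Ratios have exact conditional binomial intervals. The calculation of ratios was tested on simulated data. With 1 library a condition there is no test. For shares of cells, each cell was also thinned at random to 500 UMIs. Promoter windows were searched for exact words on both strands, using the first of 2 windows for Prc1.

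Members, roles, lists and the limit of 3 mitosis genes were chosen with earlier results of these data known. Stmn1, Top2a, Hmgb2, Hist1h2ae, Tubb5, Pclaf, Tuba1b, Birc5, Mki67, H2afz, Hmgn2, Nusap1, Cks1b and H2afv are also markers of a proliferating cluster that the study found in these libraries, so they are not independent evidence. All 42 genes are named. Outside them, the text names the 10 genes with the highest ratio in cells with at least 3 mitosis genes. These had at least 30 UMIs in those cells and were higher in them in each library. It also names up to 4 per wider list with the most UMIs. Chosen after their values were seen were Cdkn2c, Cdkn2d, C1qa, Lyz2, Cd68, Cd14, Ccr2 and Ly6c2. Python 3.11.15, numpy 2.4.6 and scipy 1.17.1 were used.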

Additional observations from a re-analysis of the deposited data

How the results depend on the processing

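The choices of processing were changed in 15 ways, 1 of them (the mitosis list without Cenpa) chosen after seeing the data, and gave 154 values, of which 128 stayed within the counting interval of the reported value (within 1.5 times for counts of genes and within 0.1 for r). No paired analysis was possible because each condition had 1 library and the labels carry no replicate numbers. The number of members at least 1.5-fold apart, reported as 2, was 4 with at least 1000 UMIs per cell, 10 with cells thinned to 500 UMIs, 4 with equal weight of cells, 5 with 10% free RNA taken off, 1 with the median ratio set to 0, 1 with a pseudocount of 1 CPM, 6 with no filter on low values and 0 at 2-fold. No share of all genes is given for these settings, so the changes in count are not read as a result about the members. The log2 ratio of the replication sum turned from 0.10 to −0.12 with thinned cells and to −0.0947 with equal weight, both just outside its interval.

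Thinning to 500 UMIs lowered the share of cells with 3 mitosis genes to 0.478% in YFP− and 0.617% in YFP+, the ratio of replication genes in them to 3.17 in YFP+, the share of them with 2 replication genes to 16.7%, and the median r among mitosis genes to −0.0017 and 0.0709. Under thinning Hist1h2ap reversed to 0.63 and Smc4 to −0.15. The causes were not tested, apart from the fewer UMIs per cell that thinning leaves. A limit of 2 mitosis genes gave 2.11% of YFP− and 1.78% of YFP+ cells, so that the order of the libraries turned, and a replication ratio of 3.28 in YFP−, and a limit of 5 gave 0.987% of YFP+ cells. At least 1 or at least 3 replication genes, in place of 2, were found in 76.5% and 45.6% of the cells. The replication genes were higher in the cells with mitosis genes, by log2 ratios over 3, under each of the alternatives run.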

Other observations

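Other genes of the cycle, from lists of textbook members that hold none of the 42, were described in the same cells. The mean of 5 CPM was taken over all cells, so some genes reached it only through the cells with 3 mitosis genes. Tk1, for example, was at 2.12 CPM in the other YFP− cells and at 2.43 CPM in the other YFP+ cells. The counts below, of G1 regulators and inhibitors too, are therefore a description. Of 26 other S-phase genes with a mean of 5 CPM, 24 in YFP− and 25 in YFP+ were at least 2-fold higher in the cells with at least 3 mitosis genes, and of 21 other G2/M genes 18 and 21 were, beside 17.5% of all tested genes in YFP− and 13.4% in YFP+. Slbp, which binds the stem loop of histone transcripts, was at 389 against 72.4 CPM in YFP− and at 341 against 78.1 CPM in YFP+ cells. Tmpo, a protein of the nuclear envelope, was at 513 against 44.0 CPM and at 454 against 49.2 CPM. The 10 genes outside the 42 with the highest ratio, by both libraries summed, were Esco2, Lockd, Pbk, Tk1, Hist1h2br, Hist1h1b, Kif23, Racgap1, Hist1h2bm and Spc24. Esco2, which acetylates cohesin in S phase, had 34 of 36 UMIs in the 68 cells.

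Regulators of G1 behaved differently among themselves, with 5 of 12 at least 2-fold higher in each library (17.5% and 13.4% of all tested genes) and 4 in YFP− and 1 in YFP+ at least 2-fold lower (36.4% and 19.1%). Cdk4 was higher in both (log2 1.40, 0.25 to 2.37 in YFP− and 1.42, 0.79 to 1.99 in YFP+). Its cyclin partner Ccnd2 was lower, at 23.9 against 78.9 CPM in YFP+ cells (log2 −1.72, −3.60 to −0.36), with 1 UMI in the YFP− cells. Of 11 inhibitors of the cycle 3 were at least 2-fold higher in each library, and 1 in YFP− and 2 in YFP+ were at least 2-fold lower, beside the same shares of all tested genes. Cdkn1a, which codes for p21, was at 230 against 47.9 CPM in YFP− (log2 2.26, 1.31 to 3.10) and at 287 against 72.3 CPM in YFP+ cells (1.99, 1.53 to 2.42). The others were Cdkn2c (log2 3.28 and 3.04) and Cdkn2d (log2 2.76 and 2.57). Btg2, an antiproliferative gene, was lower in YFP+ cells with 3 mitosis genes (log2 −0.98, −1.59 to −0.43).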
